A study of Mus musculus with 34 samples.

Results

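Nuclear receptors are transcription factors, many of which are switched on by a small fat-soluble ligand. The set described here holds the members of this family outside the thyroid hormone and retinoid X receptor group: the steroid receptors, the estrogen-related receptors, the HNF4 receptors, the PPARs and liver X receptors, the xenobiotic and vitamin D receptors, the COUP-TF and testicular receptors, the NR4A, NR5A, NR6A and NR0B receptors and the RORs. It was fixed as 32 genes, and a probe belonged to it when its RefSeq accession carried the symbol of a member. Of the 32 genes, 31 had a probe and 1 (Nr3c2, the mineralocorticoid receptor) had none named here, which gave 40 probes of the 41174 on the array. A single probe stood for 24 members, 5 members had 2 probes, and Hnf4a and Nr3c1 had 3 each.

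Livers of C57BL/6 mouse pups were collected on postnatal day (PND) 15, and 34 pups were measured on 1 array each. The hypo group (4 males and 5 females) was nursed by dams whose water held, for 3 days, 0.05% methimazole (an inhibitor of thyroid peroxidase) and 1% sodium perchlorate (which keeps iodide out of the thyroid). The treatment began on PND 12 by the study's methods and on PND 13 by the description of the series. The hypo+ group (4 males and 3 females) had the same exposure and received 20 µg T4 with 2 µg T3 per 100 g body weight by injection 4 h before collection. The hyper group (5 males and 5 females) had no exposure and received 50 µg T4 with 5 µg T3 per 100 g. Control pups (4 males and 4 females) and hypo pups were injected with saline, and the water of all dams held 1% sucrose. The hypo+ pups on the arrays were those whose serum T4 was near or slightly above control, so their hormone level was part of their selection. The level of a gene is given throughout as the log2 ratio of the pup's liver RNA (Cy5) over a universal mouse reference RNA (Cy3), and a log2 change is the difference of this ratio between groups. In whole liver, fewer cells of a type and less RNA per cell cannot be told apart.

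Esr1 and Nr3c1 bind estrogens and glucocorticoids, and both act in hepatocytes on growth and glucose metabolism. Nr1i3 (the constitutive androstane receptor, CAR) and Nr1i2 (the pregnane X receptor, PXR) sense foreign compounds and bile acids and raise the transcription of cytochrome P450 and transporter genes. Hnf4a and Nr5a2 hold up the hepatocyte programme, and the PPARs and liver X receptors tie transcription to fatty acids and oxysterols. Many of these receptors bind DNA as a partner of a retinoid X receptor, as thyroid hormone receptors do.

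The arrays were alike in brightness. The median Cy5 signal of an array ran from 146 to 199 and the median Cy3 signal from 64 to 100, and 60.8 to 79.4% of spots were well above background in Cy5. The 34 arrays lay on 11 slides and were scanned on 6 days. All 10 hepatocyte markers with a probe were detected in every pup, as the liver label requires. Some livers carried signal of other tissues. The summed Cy5 signal of 11 pancreatic acinar markers reached 114100 and 127700 in control males 832 and 522 and 23600 in control female 831, against 4073 to 10840 in the other pups. The sum of 5 adipocyte markers was 3218 in hypo male 311 and 2332 in hyper female 499, and that of 4 skeletal muscle markers was 10320 in hypo female 721. Results that changed without these pups are given both ways.

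Of the 31 members with a probe, 21 were well above background in Cy5 in all 34 pups by at least 1 probe, 5 in some pups and 5 in none. Because probes differ in how brightly they bind, these levels are given against the reference RNA and not against one another.

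Among the steroid receptors, Esr1 and Nr3c1 were detected in every pup. Probe A_52_P237077 of Esr1, which was printed on 10 spots, had a log2 ratio of 2.87 ± 0.31 (SD, n = 34). A second Esr1 probe (A_51_P474658, 1 spot) was dim, was detected in 30 pups and had a ratio of only 0.33 ± 0.14. It was well above background in the reference channel on 19 arrays. The 3 probes of Nr3c1 lay close to the reference, at 0.02 ± 0.21 (A_52_P254174), 0.16 ± 0.16 (A_51_P355693) and 0.58 ± 0.22 (A_52_P63106). The median Cy5 signals of the first 2 were 234 and 167 and that of the third was 453, against a median limit of 94.8 set by negative control spots. Background was not subtracted, so ratios and changes of probes as dim as the first 2 can be drawn towards 0. Esr2, the second estrogen receptor, was not well above background in any pup on the 10 spots of its probe. Pgr, the progesterone receptor, was not detected either. In the reference channel both probes were well above background on 0 arrays. An absent transcript and a probe that does not respond can thus not be told apart here.

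The receptors of foreign compounds, bile acids and lipids were detected in every pup with 1 exception. Nr1i2 had a log2 ratio of 4.42 ± 0.33, Nr1i3 of 3.19 ± 0.20 and Nr1h3, the liver X receptor of liver and fat, of 3.56 ± 0.22. Its widely expressed relative Nr1h2 was near the reference at -0.30 ± 0.09. Pparg, known best as the receptor that drives fat cell formation, was detected in all pups at 1.29 ± 0.26 on 10 spots, and Ppard was detected in 32 pups. The vitamin D receptor Vdr lay below the reference in every pup, at -2.25 ± 0.16.

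Hnf4a, the main hepatocyte nuclear receptor, had a log2 ratio of 4.78 ± 0.37 by A_52_P683991 and of 1.55 ± 0.13 and 1.96 ± 0.26 by its other 2 probes. The last of these, A_52_P69656, was well above background in the reference channel on only 9 arrays, which limits what its ratio shows. Nr5a2, which controls bile acid synthesis, had a ratio of 4.14 ± 0.38. Nr5a1, a receptor of adrenal and gonad, was well above background in all 34 pups at 0.63 ± 0.18, whereas its partner in those tissues, Nr0b1, was detected in none. The Nr0b1 probe was well above background in the reference channel on 0 arrays as well, so whether it responds at all is not shown. Of 4 markers of adrenal cortex or gonad with a probe, Hsd3b1 was detected in all 34 pups, Star in 31, Cyp21a1 in 30 and Cyp11a1 in 7, and the part of such tissue in the Nr5a1 signal was not tested. Nr6a1, a germ cell receptor, was also detected in all pups at 0.70 ± 0.16.

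Of the NR4A receptors, which are switched on at the level of transcription by stress and growth signals, Nr4a1 and Nr4a2 were detected in every pup below the reference, at -2.66 ± 0.55 and -1.59 ± 0.15. Nr4a1 had the widest spread of the 40 probes over the pups. The clock receptor Rora was detected in all pups at 1.45 ± 0.20 and 1.63 ± 0.21 by 2 probes, whereas Rorb, a receptor of retina and brain, was detected in no pup by either of its 2 probes. Its probe A_52_P662179 was well above background in the reference channel on 28 arrays. The COUP-TF relatives Nr2f2 (-0.33 ± 0.27) and Nr2f6 (1.74 ± 0.16) were detected in all pups, and Nr2f1 in 1 pup. Nr2e1 and Nr4a3 were each detected in 1 pup, Esrrb in 7 and Nr2e3 in none.

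**Figure D1:**
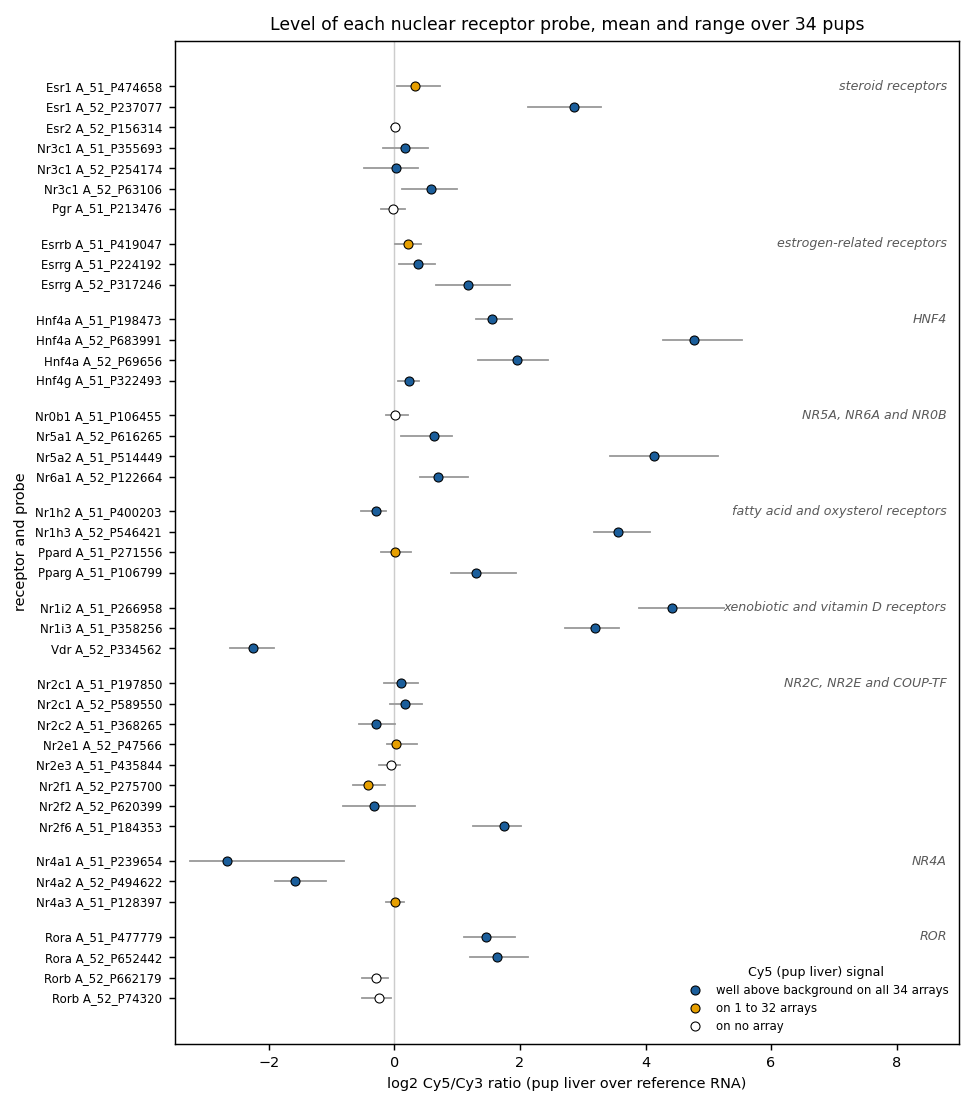
Log2 Cy5/Cy3 ratio of all 40 probes of the nuclear receptors, grouped by family (horizontal axis: log2 ratio of pup liver over reference RNA; point: mean; line: lowest to highest of 34 pups). Blue points were well above background in Cy5 on all arrays, orange points on 1 to 32 arrays and open points on none; Hnf4a by A_52_P683991 has a mean of 4.78 and Nr4a1 one of -2.66.

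The comparison of hypo with control pups asked which receptors changed after 3 days of exposure to methimazole and perchlorate. Hypo and hypo+ pups both had these compounds and control pups had neither. Against control pups, effects of the compounds themselves and of hormone loss cannot be told apart. In both sexes together Esr1 and Nr3c1 fell and Pparg rose, each by 1 probe. By limma with Benjamini-Hochberg adjustment these were 3 of the 40 member probes, 1 higher and 2 lower, where 1.28% of all probes were called in this comparison (0.624% higher and 0.658% lower). The median log2 change of the 40 probes was 0.00. A further 8 member probes had an unadjusted p under 0.05 and were not called, so that 11 of 40 were below that value in all, as were 8.93% of all probes. The fits of both sexes treat pups as independent, whereas the study's methods kept the sexes apart because pups of a dam may be alike. The compounds were given in the dam's water, so pups of a dam also shared their exposure. With litter, inferred from the animal numbers, as a random block all 3 were called (limma adjusted p = 0.0021 for Esr1, 0.0034 for Nr3c1 and 0.029 for Pparg).

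Esr1 was lower in nearly every hypo pup. By probe A_52_P237077 the log2 ratios of the control males were 2.66, 2.81, 3.09 and 2.96, and those of the hypo males were 2.13, 2.92, 2.26 and 2.50. In control females they were 3.26, 2.80, 3.04 and 3.10, and in hypo females 2.56, 2.31, 2.42, 2.54 and 2.51. All 5 hypo females lay below all 4 control females, and 3 of the 4 hypo males lay below the lowest control male, with hypo male 576 among the controls. The log2 change was -0.51 (SE 0.089, 95% interval -0.69 to -0.33) in both sexes, a 1.42-fold drop, with a limma adjusted p of 0.00078. In females alone it was -0.58 (SE 0.10, adjusted p = 0.0257), which was the only member probe called there (0.155% of all probes were called). In males alone it was -0.43 (SE 0.14) with an unadjusted p of 0.0087 and a limma adjusted p of 0.63. The 7 slides that held both groups held 1 pup of each. The hypo pup was lower on all 7, by log2 differences of -0.78 to -0.17, which on the slides of females follows from the separation above. Without 1 of 6 pups at a time (control females 394, 831 and 882 and hypo females 316, 575 and 743) the call in females was lost, with an adjusted p of up to 0.10.

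The dim Esr1 probe moved the same way by less. Its mean was 0.24 in hypo and 0.38 in control pups, a log2 change of -0.15 (SE 0.054) with an unadjusted p of 0.011 and a limma adjusted p of 0.28. It was lower in hypo pups on 6 of 7 slides.

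Nr3c1, the glucocorticoid receptor, was lower by A_52_P254174. Control males had log2 ratios of 0.19, 0.07, -0.05 and -0.18, and hypo males had -0.33, -0.24, -0.25 and -0.37. Control females had 0.22, 0.09, 0.11 and 0.08, and hypo females had -0.36, -0.06, -0.08, -0.48 and -0.17. Within each sex all hypo pups lay below all control pups. The log2 change in both sexes was -0.33 (SE 0.061, interval -0.45 to -0.20), a 1.25-fold drop, with a limma adjusted p of 0.0020. Under the 17 other settings, 1 of which averaged the gene's probes, this change ran from -0.47 to -0.19. The call was lost under 2 of them, the Cy5 channel alone (-0.20) and median centring (-0.29). The hypo pup was lower on 7 of 7 slides (-0.57 to -0.14). Each of these slides held a single sex, so that count follows from the separation within each sex and adds no support. Taken alone, males had a change of -0.30 (limma adjusted p = 0.44) and females one of -0.35 (adjusted p = 0.15), neither of which was called. In hypo males 0 of 40 member probes were called by limma, 6 had an unadjusted p under 0.05 (5.2% of all probes did), and 0.0971% of all probes were called.

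The other probes of Nr3c1 differed from it in size. A_51_P355693 had a log2 change of -0.18 (SE 0.059, limma adjusted p = 0.18), and A_52_P63106 had one of -0.07 (SE 0.079, adjusted p = 0.96) with an interval of -0.23 to 0.09. A_52_P63106 had the highest median Cy5 signal of the 3 probes (453). It was lower in hypo pups on 4 of 7 slides and higher on 3, and A_51_P355693 was lower on 5 of 7. Which transcripts each probe covers was not analysed here, and the difference between the probes was not tested.

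Pparg rose. Control males had log2 ratios of 1.22, 1.04, 1.14 and 1.33, and hypo males had 1.69, 1.71, 1.51 and 1.26. Control females had 1.47, 1.20, 1.06 and 1.16, and hypo females had 1.79, 1.49, 1.94, 1.54 and 1.24. The ranges overlapped in both sexes, and 7 of the 9 hypo pups lay above the highest control pup. The log2 change in both sexes was 0.37 (SE 0.086, interval 0.20 to 0.55), a 1.29-fold increase, with a limma adjusted p of 0.0175. It was 0.36 in males and 0.38 in females, which were not called (limma adjusted p = 0.56 and 0.60). Within slides the hypo pup was higher on 5 of 7, with differences from -0.23 to 0.87.

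The call of Pparg was lost under 4 of 17 other settings, with the direction kept in each. With only hypo and control pups in the fit the log2 change was 0.37 and the limma adjusted p 0.060, and with median centring in place of loess they were 0.37 and 0.81. The summed adipocyte signal was 661.7 to 722.7 in control and 649.4 to 3218 in hypo pups, with Lep, which encodes leptin, not detected in any pup and Adipoq, which encodes adiponectin, detected in 7. In the fit without hypo male 311, hypo female 721 and hyper female 499 the log2 change of Pparg was 0.30 and its limma adjusted p 0.090. In the fit without the 3 control pups high in acinar markers it was 0.30 with an adjusted p of 0.25. The part of other tissues in the Pparg signal was not tested. With males and females in 1 fit, Esr1 and Nr3c1 (A_52_P254174) were called without either set of pups. In females alone the call of Esr1 was lost without either set, at log2 changes of -0.57 and -0.58.

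**Figure D2:**
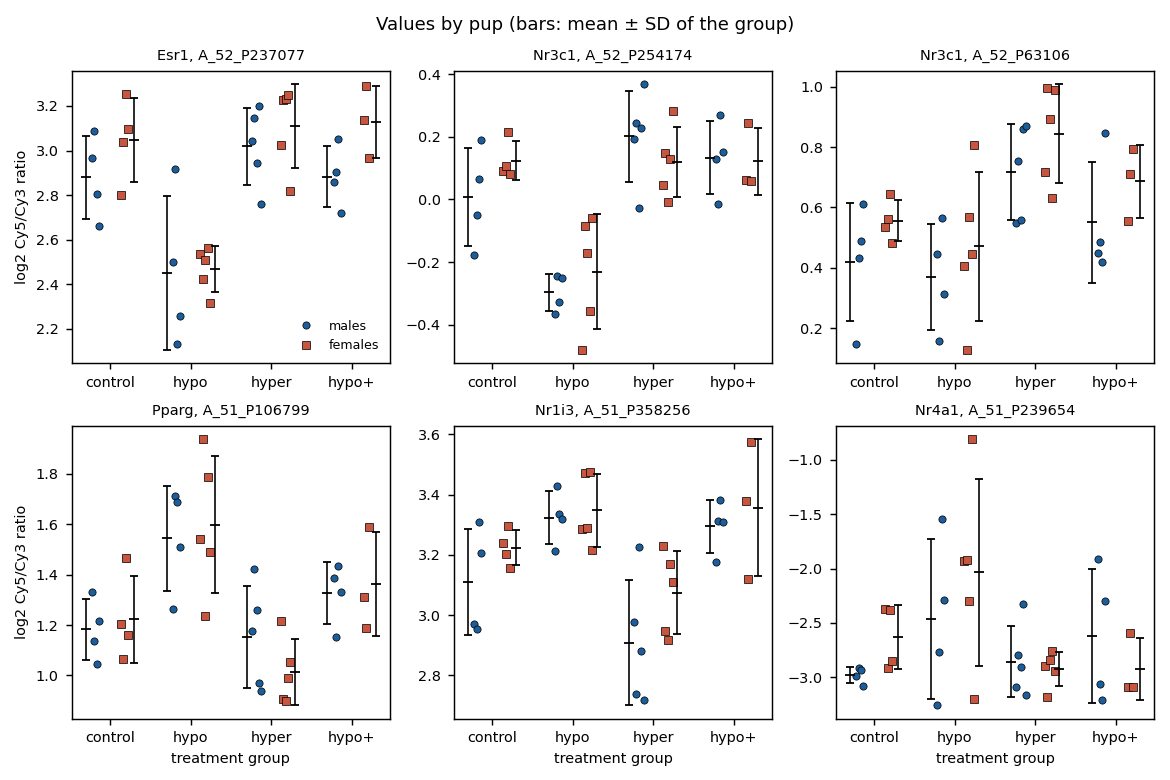
Log2 Cy5/Cy3 ratio of 6 receptor probes in each pup by treatment group (vertical axis; circles males, squares females; bars mean ± SD of a group). Hypo pups sit low for Esr1 and for Nr3c1 by A_52_P254174 and high for Pparg, hypo+ pups overlap control pups for Esr1 by A_52_P237077, and Nr4a1 runs from -3.26 to -0.81 in hypo pups.

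The RefSeq promoters of Esr1 and Pparg are shown because both receptors changed and because AGGTCA, the core motif that thyroid hormone, retinoid X and many other nuclear receptors bind, can be looked for in them. Each window runs from 250 bases before to 50 bases after an annotated start on GRCm38.p6, both genes are on the plus strand, and capitals mark AGGTCA on either strand. Both windows of Esr1 and the 2 of 3 Pparg windows that hold a match are given. Of Nr3c1, Hnf4g and Nr5a1 no window was used here.
Esr1, chr10:4611739-4612038: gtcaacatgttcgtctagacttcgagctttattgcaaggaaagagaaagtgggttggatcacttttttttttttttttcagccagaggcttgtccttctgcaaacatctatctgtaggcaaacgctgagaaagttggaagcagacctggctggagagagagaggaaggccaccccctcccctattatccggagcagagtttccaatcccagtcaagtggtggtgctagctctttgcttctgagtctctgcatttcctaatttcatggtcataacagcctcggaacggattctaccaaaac
Esr1, chr10:4709908-4710207: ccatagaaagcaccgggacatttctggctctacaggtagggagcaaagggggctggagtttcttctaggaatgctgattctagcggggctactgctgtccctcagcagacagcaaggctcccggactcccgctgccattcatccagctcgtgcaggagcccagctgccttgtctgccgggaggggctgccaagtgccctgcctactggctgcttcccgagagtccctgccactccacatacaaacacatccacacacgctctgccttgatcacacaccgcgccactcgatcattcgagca
Pparg, chr6:115360894-115361193: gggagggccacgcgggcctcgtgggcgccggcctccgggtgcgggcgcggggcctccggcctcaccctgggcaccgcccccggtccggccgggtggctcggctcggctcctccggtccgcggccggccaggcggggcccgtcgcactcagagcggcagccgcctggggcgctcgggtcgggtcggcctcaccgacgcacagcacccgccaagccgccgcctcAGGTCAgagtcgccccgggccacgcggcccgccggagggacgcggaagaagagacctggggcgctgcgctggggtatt
Pparg, chr6:115362099-115362398: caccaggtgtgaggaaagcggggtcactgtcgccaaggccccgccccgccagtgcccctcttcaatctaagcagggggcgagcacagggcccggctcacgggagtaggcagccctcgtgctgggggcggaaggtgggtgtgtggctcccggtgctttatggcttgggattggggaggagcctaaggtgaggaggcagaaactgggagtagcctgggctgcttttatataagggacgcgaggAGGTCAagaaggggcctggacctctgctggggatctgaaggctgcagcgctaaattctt

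Neither Esr1 window held AGGTCA on either strand. In Pparg the match began at position -28 of the first window and at -9 of the second, counted from the annotated start, and the third window (chr6:115421816-115422115) had none. Of the 42 windows of 29 members 5 held a match (11.9%), in Nr0b1, Nr5a2, Nr6a1 and Pparg, against 16.3% of all 32851 windows. The spaced repeat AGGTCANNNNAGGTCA, to which thyroid hormone receptors bind as partners of retinoid X receptors, was in 0 member windows and in 0.0152% of all windows. The palindromes GGTCANNNTGACC of the estrogen receptors and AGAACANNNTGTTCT of the glucocorticoid receptor were in 0 member windows, and in 0.07% and 0.00913% of all. A match is a run of letters in a short window and not a binding site.

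Several members had a shift in hypo pups that did not pass the test. Nr4a1 had a log2 change of 0.57 (SE 0.23, limma adjusted p = 0.36). Its log2 ratio was -3.08 to -2.37 in control pups and -3.26 to -0.81 in hypo pups, with hypo female 316 at -0.81 and hypo male 311 at -1.54 as the highest pups of their groups. Of the 9 hypo pups 6 lay above the highest control pup, and 2 lay below the lowest. Both probes of Rora had nearly the same value, 0.22 (SE 0.085) and 0.23 (SE 0.085), with limma adjusted p-values of 0.29 and 0.28. Nr5a2 had 0.36 (SE 0.16, adjusted p = 0.44). Ppard had -0.11 (SE 0.043, limma adjusted p = 0.35) and Nr1i3 0.16 (SE 0.067, adjusted p = 0.37). The log2 ratio of Nr1i3 was 2.95 to 3.31 in control and 3.21 to 3.48 in hypo pups. Of the 9 hypo pups 5 lay above the highest control pup, and the hypo pup was higher on 6 of 7 slides. The HNF4 probes ranged from -0.08 to 0.06, and the estrogen-related receptors from 0.00 to 0.04.

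**Figure D3:**
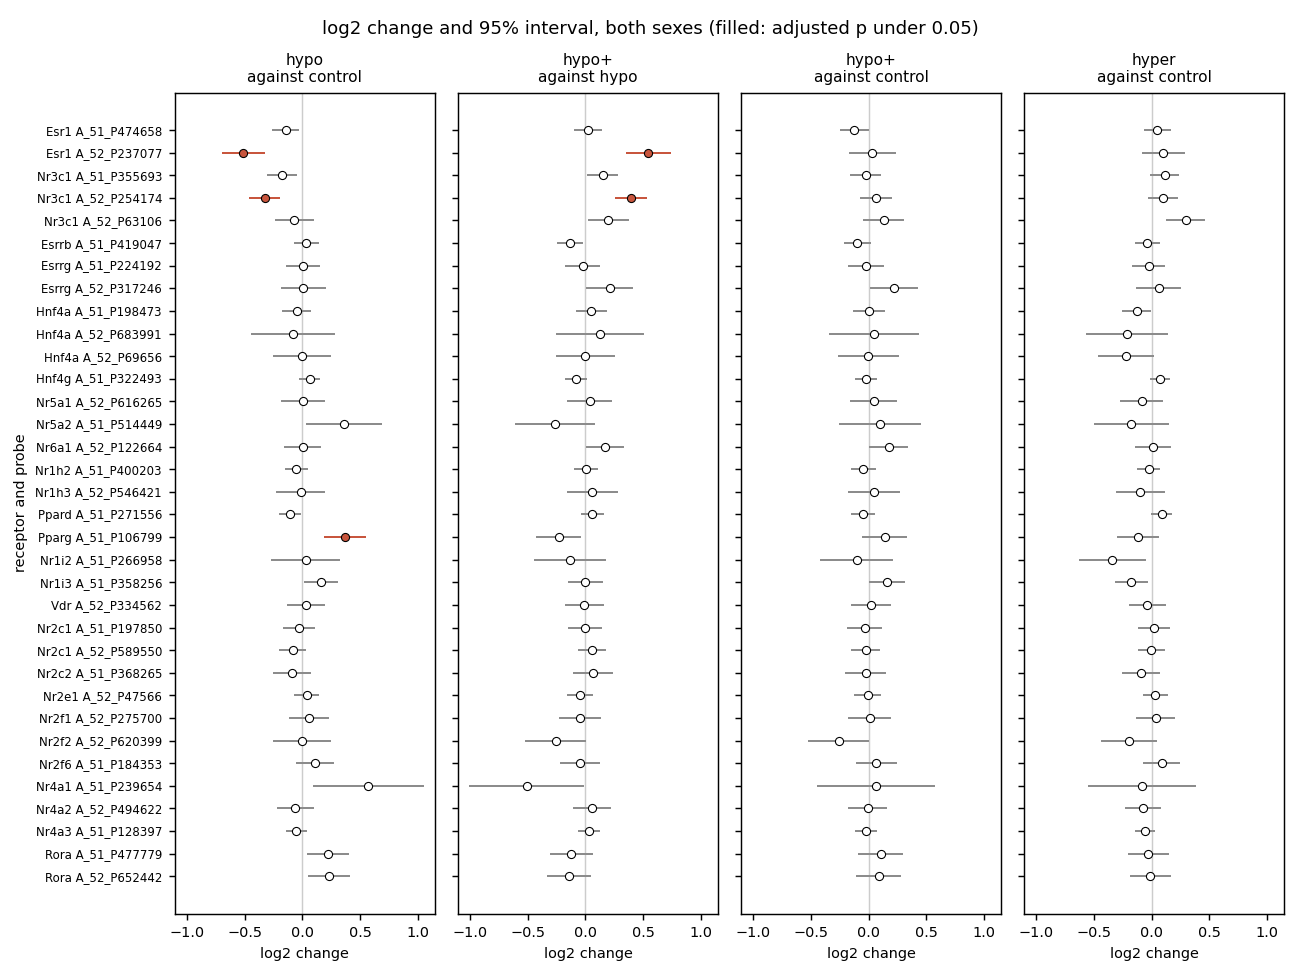
Log2 change (horizontal axis) with its 95% interval for the 34 probes detected in at least 1 pup, in both sexes together, for 4 comparisons. Filled red points passed the limma test at an adjusted p under 0.05: Esr1, Nr3c1 and Pparg in hypo against control pups, and Esr1 and Nr3c1 in hypo+ against hypo pups.

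The comparison of hypo+ with hypo pups asked what a single hormone injection changed 4 h later in pups that had been depleted. Esr1 and Nr3c1 rose by the same probes, the 2 of 40 that were called in both sexes by limma, both higher, where 3.58% of all probes were called (1.82% higher and 1.76% lower). Hypo pups enter both this comparison and that with control, so the 2 sets of values are not independent. With inferred litter as a random block both probes were still called.

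For Esr1 the hypo+ males had log2 ratios of 2.72, 2.91, 2.86 and 3.05, and the hypo+ females 3.29, 2.96 and 3.14. All 3 hypo+ females lay above all 5 hypo females, and in males the ranges overlapped by hypo male 576 alone. The log2 change was 0.54 (SE 0.092, interval 0.36 to 0.73), a 1.46-fold increase, with a limma adjusted p of 0.00028. It was 0.66 (SE 0.11, adjusted p = 0.0077) in females, the only member probe called there (0.556% of all probes), and 0.43 (SE 0.14, adjusted p = 0.30) in males. The call in females was lost without hypo+ female 543, with an adjusted p of 0.061. On 4 slides that held both groups the hypo+ pup was higher on 3, and the differences ran from -0.06 to 0.87. On the slides of females this follows from the separation above. The dim probe of Esr1 had a log2 change of 0.02 (SE 0.056, interval -0.09 to 0.14).

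For Nr3c1 by A_52_P254174 the hypo+ males had log2 ratios of 0.15, -0.01, 0.13 and 0.27 and the hypo+ females 0.25, 0.06 and 0.06. All 7 hypo+ pups lay above all 9 hypo pups. The hypo+ pup was therefore also higher on 4 of 4 slides, by 0.31 to 0.54, which adds no support to that separation. The log2 change was 0.39 (SE 0.064, interval 0.26 to 0.52), a 1.31-fold increase, with a limma adjusted p of 0.00016. In males it was 0.43 (SE 0.087, adjusted p = 0.040), the only member probe called there (0.369% of all probes), and in females 0.35 (adjusted p = 0.12). The call in males was lost, with a limma adjusted p of up to 0.14, without any 1 of 11 of the 17 males (control 832, hyper 696, 784 and 864, hypo 311, 576, 723 and 891, and hypo+ 363, 546 and 761). It was also lost under 11 of 16 other settings, among them slide as a fixed block (a log2 change of 0.35, adjusted p = 0.12) and scan day as a fixed block (0.33, adjusted p = 0.13). The other 2 probes had log2 changes of 0.15 and 0.20 and were not called (limma adjusted p = 0.21 and 0.23).

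Pparg was 0.23 lower in hypo+ than in hypo pups on the log2 scale (a change of -0.23, SE 0.090, limma adjusted p = 0.17) and lower on 4 of 4 slides. Nr4a1 had a change of -0.51 (SE 0.24, adjusted p = 0.32), and Nr1i3 one of 0.00 (SE 0.070, interval -0.15 to 0.14).

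Against control pups, hypo+ pups had 0 of 40 member probes called by limma in both sexes, where 1.32% of all probes were called and 5 member probes had an unadjusted p under 0.05, as did 11.9% of all probes. Esr1 by A_52_P237077 had a log2 change of 0.03 (SE 0.094, interval -0.16 to 0.23) and Nr3c1 by A_52_P254174 one of 0.06 (SE 0.065, interval -0.07 to 0.20). The dim Esr1 probe A_51_P474658 did not share this: its mean was 0.25 in hypo+ and 0.38 in control pups, a log2 change of -0.12 (SE 0.058, interval -0.24 to -0.01) with an unadjusted p of 0.039 and a limma adjusted p of 0.38. It was lower in hypo+ than in control pups on 5 of 5 slides, by -0.16 to -0.10, and the difference between the 2 probes was not tested. The other Nr3c1 probes had changes of -0.03 (A_51_P355693, SE 0.063) and 0.13 (A_52_P63106, SE 0.085). The 3 detected probes with the smallest p-values were those of Nr1i3, Esrrg and Nr6a1. Nr1i3 had a change of 0.16 (SE 0.072, limma adjusted p = 0.35). Its log2 ratio was 3.12 to 3.57 in hypo+ pups, 4 of 7 of them above the highest control pup, and it was higher on 4 of 5 slides. Esrrg by A_52_P317246 had one of 0.22 (SE 0.099, adjusted p = 0.36) while its other probe had -0.02, and Nr6a1 had one of 0.17 (SE 0.079, adjusted p = 0.36). In the reference channel A_52_P317246 was well above background on only 4 arrays, and the other Esrrg probe on 34. In males 0 of 40 member probes were called, with 0 at an unadjusted p under 0.05 (0.0267% of all probes were called and 7.56% were below that p), and in females 0, with 2 (0.0219% and 4.79%).

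In hyper pups, which asked for the effect of excess hormone within 4 h, 0 of 40 member probes were called by limma in both sexes, where 0.952% of all probes were called and 4 member probes had an unadjusted p under 0.05, as did 7.41% of all probes. The probe nearest to the threshold was A_52_P63106 of Nr3c1, the same gene by a different probe from that which fell in hypo pups. Its log2 ratios in hyper males were 0.56, 0.87, 0.86, 0.75 and 0.55, against 0.61, 0.49, 0.43 and 0.15 in control males. Hyper females had 0.89, 0.99, 0.72, 0.99 and 0.63, against 0.65, 0.53, 0.56 and 0.48 in control females. Of the 10 hyper pups 7 lay above the highest control pup. The log2 change was 0.29 (SE 0.077, interval 0.14 to 0.45, limma adjusted p = 0.059), and the hyper pup was higher on 8 of 8 slides by 0.07 to 0.51. With slide as a fixed block the probe was called at a log2 change of 0.30, as it was under 6 other settings and without any 1 of 7 pups (control male 391, hyper female 861, hyper males 498 and 864, hypo females 575 and 721 and hypo+ male 363). Under 10 of the 17 settings it was not called. Over all 17, which include the mean of the gene's probes, the change ran from 0.17 to 0.35. With each array left out in turn the limma adjusted p was 0.034 to 0.17. The other 2 Nr3c1 probes had changes of 0.11 and 0.10 and were not called (limma adjusted p = 0.73 and 0.85).

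Both receptors of foreign compounds had lower means in hyper pups, and neither was called. Nr1i3 in hyper males had log2 ratios of 3.23, 2.72, 2.88, 2.74 and 2.98 against 3.21, 3.31, 2.95 and 2.97 in control males. In hyper females it had 2.92, 2.95, 3.23, 3.11 and 3.17 against 3.30, 3.24, 3.20 and 3.16 in control females. Its log2 change was -0.18 (SE 0.066, interval -0.31 to -0.04, limma adjusted p = 0.35), and it was lower on 7 of 8 slides. Nr1i2 had a change of -0.34 (SE 0.14, adjusted p = 0.45), was lower on 8 of 8 slides, with differences of -0.56 to -0.16, and had 7 of 10 hyper pups below the lowest control pup. Measured by the Cy5 channel alone, Nr1i2 was called at -0.53. Under the other 16 of 17 settings it was not called, and over all 17 the change ran from -0.53 to -0.10. Esr1 by A_52_P237077 had a change of 0.10 (SE 0.086, interval -0.08 to 0.28) and by A_51_P474658 one of 0.05 (SE 0.053). In hyper males 0 of 40 member probes were called, with 2 at an unadjusted p under 0.05 (0.0753% of all probes were called and 2.97% were below that p), and in females 0, with 3 (0.158% and 6.16%).

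Between females and males, across the 34 pups, 0 of 40 member probes were called by limma, 7 had an unadjusted p under 0.05 (10% of all probes did), and 0.102% of all probes were called. Esr1 by A_52_P237077 was 0.12 higher in females on the log2 scale (SE 0.063, interval -0.01 to 0.25) and Nr1i3 0.10 higher (SE 0.048, interval 0.00 to 0.19). Apart from the slide of hypo+ male 363 and hypo+ female 601, each slide held pups of a single sex. A difference between the sexes and one between slides can thus hardly be told apart. In the interaction of sex and treatment 0 of 40 member probes were called by limma in any comparison, as were 0% of all probes, with 0 or 1 member probe at an unadjusted p under 0.05 in each (1.04 to 2.11% of all probes). For the hypo change of Esr1 by A_52_P237077 the female minus male difference was -0.15 (SE 0.18), with an interval from -0.52 to 0.22. The calls of Esr1 in females alone and of Nr3c1 in males alone were thus not shown to differ between the sexes.

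Other genes of the receptor pathways were read from lists of known partners and targets. Counts in these lists are of genes with a called probe. Of all probes, 1.28% were called in hypo, 0.952% in hyper and 1.32% in hypo+ against control pups, and 3.58% in hypo+ against hypo pups. Of 20 coregulators, 1 was lower and 0 were higher in hypo pups by limma at an adjusted p under 0.05. Ppargc1b, a coactivator of estrogen-related receptors and PPARs, had a log2 change of -0.66 (SE 0.096) by one probe and -0.72 (SE 0.11) by another in hypo pups, and of 0.57 and 0.54 in hypo+ against control pups. The list's median log2 change over 38 probes was between -0.02 and 0.01 in the 4 treatment comparisons of both sexes, as for all probes, whose median lay between -0.01 and 0.00.

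Of 15 targets of CAR and PXR with a probe, 3 rose and 0 fell in hypo pups, where 0.624% of all probes were called higher and 0.658% lower. Gstm3, a glutathione transferase, rose by 1.21 (SE 0.10), Abcc3, a bile acid and conjugate exporter, by 0.60 (SE 0.14), and Cyp2c55, a cytochrome P450, by 0.52 (SE 0.095). Gstm3 and Abcc3 were also higher in hypo+ than in control pups (1.16 and 0.68), 0 of the 15 were called in hyper pups, and against hypo pups Por, the electron donor of cytochromes P450, was higher (0.35) and Cyp2c55 lower (-0.44) in hypo+ pups. Over 20 probes the median log2 change against control was 0.05 (hypo), -0.09 (hyper) and 0.12 (hypo+). Over all probes it was -0.0002, -0.003 and -0.006. The list's other cytochromes P450, among them Cyp2b10, Cyp2c29 and Cyp3a11, were not called in any of these comparisons. Whether CAR or PXR had a part in these changes was not tested.

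Of 13 glucocorticoid receptor targets with a probe, 0 were called in hypo pups, with a median log2 change of -0.02 over 17 probes. In hyper pups the metallothioneins Mt1 and Mt2 fell, with log2 changes of -1.03 (SE 0.24) and -1.59 (SE 0.36). The list's median there was -0.30, against -0.003 over all probes, of which 0.952% were called. In hypo+ pups Fkbp5, a chaperone of the receptor, was lower (-0.66 against control and -0.70 against hypo pups), and Klf9 was higher against hypo pups (0.65, SE 0.18). Klf9 is also a known thyroid hormone target. Of 7 estrogen receptor targets, 11 liver X receptor targets and 12 HNF4A targets, 0 were called in any of the 4 comparisons in both sexes. Of 16 nuclear receptors of the thyroid, retinoid and related groups, Rarb was higher in hyper pups (0.58, SE 0.076), and 0 were called in hypo or in hypo+ against control pups.

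**Figure D4:**
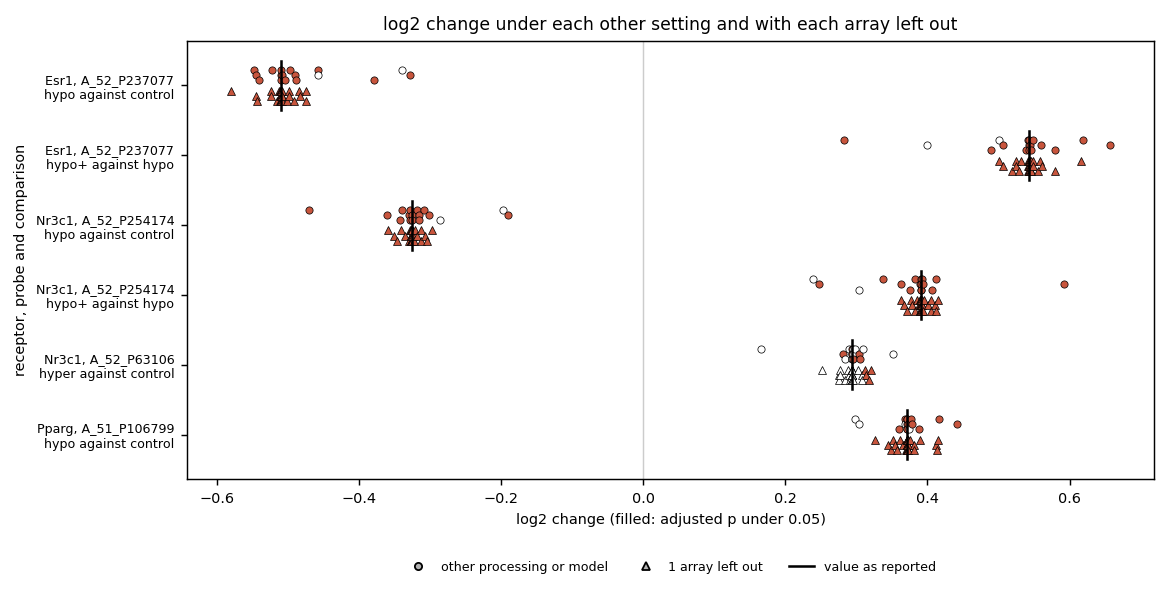
Log2 change (horizontal axis) of the receptors called in both sexes, and of Nr3c1 by A_52_P63106, under 17 other settings (circles) and with each of 34 arrays left out (triangles); the vertical line is the value as reported and filled symbols had a limma adjusted p under 0.05. All values of Esr1 and of Nr3c1 kept their direction, and those of Pparg ran from 0.30 to 0.44.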

How the data were processed

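The deposited files were the scanner outputs of 34 Agilent 2-colour arrays (Feature Extraction 10.1.1.1) and a table of log2 ratios per spot made by the authors. In the scanner files the deposited intensity values were the median signal of a spot in each channel, with a median background intensity beside it and the software's log10 ratio of Cy5 over Cy3. Pup liver RNA was labelled with Cy5 and a commercial universal mouse reference RNA with Cy3 on every array, with no dye swap, so that a dye effect shared by all arrays is part of each level but is the same in every group. Coordinates and promoter windows were those of RefSeq on GRCm38.p6, whereas the array design used mm8, and no array coordinate was used.

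Ratios of the median signals were formed without background subtraction and normalised within each array by loess (limma 3.58.1, R 4.3.3). Control spots and spots carrying an outlier or non-uniformity mark were left out, and the spots of a probe were averaged, which gave 41174 probes. The RefSeq accession of a probe was matched without its version to GRCm38.p6 symbols, which named 23374 probes. A probe was called detected in a pup when the scanner software marked at least 50% of its spots as well above background in Cy5. Linear models were fitted to all probes in each sex, in both sexes together with sex as an additive term, and with an interaction of sex and treatment. P-values were from limma's moderated test and were adjusted by Benjamini-Hochberg within each comparison over the whole array, and a probe was called at an adjusted p under 0.05. The model code was tested on simulated data. All treatment comparisons with control share the same control pups.

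The labels give 1 animal for each array. Litters were not given in the labels and were inferred from the leading digits of the animal numbers for 1 alternative only. The study's methods analysed males and females apart so that pups of a dam did not enter the same fit, and the fits of both sexes here do not meet that condition. The members, the lists of other genes and the rule for the probes described in full were chosen with earlier results of these data known. That rule took every probe of Esr1, Nr3c1 and Nr1i3, every member probe called in any comparison, and the 3 detected probes with the smallest unadjusted p in each comparison with control in both sexes. Other receptors named with values were chosen after their values were seen. Alternatives covered background correction, normalisation, the authors' values, the software's ratio, the Cy5 channel alone, filters on dim probes, slide, scan day and litter as blocks, the pups entering a fit, array weights, averaging of a gene's probes, and leaving out each array in turn. Arrays carry no read depth, and the number of pups limits the precision. Some results for genes of the partner lists are not reported here.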

Additional observations from a re-analysis of the deposited data

Results flagged for a closer look

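Among 70 groups of 4 or 5 pups tested over the 10 probes described in full, 4 held a pup that stood apart from the rest by Dixon's gap ratio, where chance alone sets apart about 1 in 20 groups. Hyper male 784 had a log2 ratio of 4.70 for Nr1i2, against 3.91 to 4.07 in the other 4 hyper males. Control female 394 had 0.01 for Nr3c1 by A_51_P355693, against 0.22 to 0.24 in the other 3. Hypo+ male 363 had 0.85 for Nr3c1 by A_52_P63106, against 0.42 to 0.49 in the other 3. Hyper female 585 had 0.80 for Nr6a1, against 0.57 to 0.62 in the other 4. No member probe had an interaction of sex and treatment at a limma adjusted p under 0.05.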

How the results depend on the processing

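Counts are of member probes called by limma at an adjusted p under 0.05. In hypo against control pups of both sexes the count of 3 was between 2 and 4 under 16 of 17 other settings and was 3 without any single array, and it fell to 0 with median centring in place of loess, which also left 59 of all probes called in place of 528. In hypo+ against hypo pups of both sexes the count of 2 became 0 with median centring, became 1 with normexp background correction, was 3 with the Cy5 channel alone (1 higher and 2 lower) and with the scanner software's ratio, and was 2 without any single array. With the Cy5 channel alone Nr3c1 by A_52_P254174 was not called in either comparison, so the counts there are not of the same probes, nor is that of 1 (lower) in hypo+ against hypo males. In hyper against control pups the count of 0 became 1 with the Cy5 channel alone (Nr1i2), and 1 (Nr3c1 by A_52_P63106) with array weights, only the compared groups, either filter on dim probes, scan day or slide as a fixed block or slide as a random block; it was 0 to 1 with arrays left out. The count of 1 in hypo females became 2 with array weights and 0 with median centring, normexp, only the compared groups, probes of a gene averaged, the scanner software's ratio or without the pups high in adipocyte or muscle or in acinar markers (both chosen after seeing the data), and was 0 to 1 with arrays left out. The count of 1 in hypo+ against hypo females became 2 with array weights and 0 with median centring, normexp, averaged probes or the software's ratio, and was 0 to 1 with arrays left out. The count of 1 in hypo+ against hypo males became 0 with array weights, median centring, normexp, only the compared groups, averaged probes, scan day or slide as a fixed block, the software's ratio or without either set of marked pups, and was 0 to 1 with arrays left out. For females against males the count of 0 became 1 without hyper female 783. The other 10 comparisons kept a count of 0 under every setting run. The log2 change of Esrrg by A_52_P317246 in hypo+ against control pups turned to -0.072 with the software's ratio. Esr1 and Nr3c1 kept their direction under all settings, and with both sexes in 1 fit they kept their call under 15 of 17. Pparg kept its call in such fits under 13 of 17. It lost the call with median centring (limma adjusted p = 0.81), with only the compared groups and without either set of marked pups. The causes were not tested. The labels give the groups no shared replicate numbers, so no replicate block was fitted; slides held several groups, and with slide as a fixed block the counts in both sexes were 3 (hypo), 2 (hypo+ against hypo), 1 (hyper) and 0 (hypo+ against control). For the dim probes, including those of the members not detected, signal near background limits what a change can show.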
